A study of Homo sapiens with 6 samples.

Results

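The genes of major histocompatibility complex (MHC) class II antigen presentation were followed in DU145, an established human prostate cancer cell line of epithelial origin, with and without overexpression of the circular RNA circCSPP1. The members were taken by symbol: CIITA, CD74, HLA-DMA, HLA-DMB, HLA-DRA, HLA-DRB1, HLA-DPA1, HLA-DPB1, HLA-DQA1 and HLA-DQB1, which gave 10 of the 19727 genes measured. All 10 were present in the expression table. Of these, 8 had a mean of at least 1 FPKM (fragments per kilobase of transcript, scaled by sequencing depth) over all libraries and were tested, and HLA-DPB1 and HLA-DQA1 were not.

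RNA was sequenced from 3 libraries of DU145 carrying a control lentivirus (genotype given as normal, called NC) and 3 libraries of DU145 carrying a lentivirus for circCSPP1 (genotype circCSPP1 overexpression, called OE). The study asked in which genes the raised circRNA was accompanied by altered mRNA. By the methods, the cells of both groups were stably transduced, selected with puromycin and grown in DMEM, and no treatment with interferon is mentioned. The paper names 1 stable line for each group and does not say whether its libraries came from separate transductions. Nothing in the sample records says that libraries of a group came from separate cultures, so p-values measure only the spread between these libraries.

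Class II molecules are pairs of an alpha and a beta chain (HLA-DR, HLA-DP and HLA-DQ) that display peptides from endosomes to CD4+ T cells. The invariant chain CD74 fills their groove on the way to the endosome, and HLA-DM, a pair of HLA-DMA and HLA-DMB, then exchanges its last fragment for a peptide. Transcription of these chains and chaperones is directed by the co-activator CIITA, which binds no DNA itself but is held at promoter X and Y boxes by the RFX and NF-Y complexes, and which interferon-gamma switches on in cells other than professional antigen-presenting cells.

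The X and Y boxes are shown here because CIITA is held at promoters through them. Promoters were taken from RefSeq (GRCh38.p14), and the 250 bases before each start were searched on both strands for the X box core AGNNACNGATG and the Y box core GATTGG, which do not overlap in letters. The table holds a promoter for 8 of the 10 members, all but CIITA and HLA-DRA. The X core stood in 4 of these 8 genes, HLA-DRB1, HLA-DQB1, HLA-DMB and HLA-DMA, and in 0.692% of all 35116 promoters. The shorter core ACNGATG, which is contained in the X core, was found in 5 member genes (CD74 in addition) and in 6.35% of all promoters. The Y core stood in 5 member genes (the 4 with an X core, and HLA-DPB1) and in 14.1% of all promoters. Both cores together, on any strand, were present in 36 promoters (0.103%), 4 of them of member genes. The X core followed by the Y core on the same strand within 60 bases occurred in only 5 promoters (0.0142%), those of HLA-DRB1, HLA-DQB1, HLA-DMA, HLA-DRB5 and HMGB4. In the stretches below, read 5′ to 3′ on the minus strand of chromosome 6, the capitals mark first the X core and then the Y core.
HLA-DRB1, chr6:32589885-32589932: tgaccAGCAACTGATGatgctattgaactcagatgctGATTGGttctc
HLA-DQB1, chr6:32666736-32666783: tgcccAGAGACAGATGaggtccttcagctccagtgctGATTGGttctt
HLA-DMA, chr6:32953167-32953215: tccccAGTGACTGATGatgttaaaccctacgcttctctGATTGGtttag
HLA-DMB, chr6:32941040-32941121: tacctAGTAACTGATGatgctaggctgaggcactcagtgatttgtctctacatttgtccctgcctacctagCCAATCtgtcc
The cores were 21 bases apart in HLA-DRB1 and HLA-DQB1 and 22 bases apart in HLA-DMA. In HLA-DMB the exact Y core that is marked lay 55 bases from the X core, on the opposite strand. Between them, on the same strand as the X core, stand the letters gatttg, which differ from the Y core in a single letter. The search took exact letters only and did not count them, so the arrangement of the boxes in HLA-DMB is not settled here. A match of letters is a description of the sequence and no measure of binding.

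DU145 expressed most of the class II set at low to moderate levels, and the levels of 7 of the 8 tested members were lower in OE by sign. Of all 12322 tested genes, 6648 were lower by sign. HLA-DMB and HLA-DRB1 fell, and no member rose. At an adjusted p under 0.05 (limma on log2(FPKM + 1), Benjamini-Hochberg over all 12322 genes tested) 2 of 8 members were called, against 11.4% of all tested genes. Both were lower in OE, against 6.66% of all tested genes called lower and 4.69% called higher. The median difference of the tested members was −0.48 on the log2 scale, beside −0.03 over all tested genes. In 4 of the 8 (HLA-DMB, HLA-DRB1, HLA-DPA1 and HLA-DQB1) every OE library lay below every NC library, which was so for 20.5% of all tested genes. The difference was −0.4 or less in 6 of the 8, against 11.1% of all tested genes. Over all 10 members, the summed level was 60.3, 64.1 and 52.9 FPKM in NC replicates 1 to 3 and 49.3, 43.1 and 43.5 FPKM in OE replicates 1 to 3. The sums did not overlap between groups. In bulk RNA, fewer cells expressing a gene and less RNA per cell cannot be told apart.

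**Figure D1:**
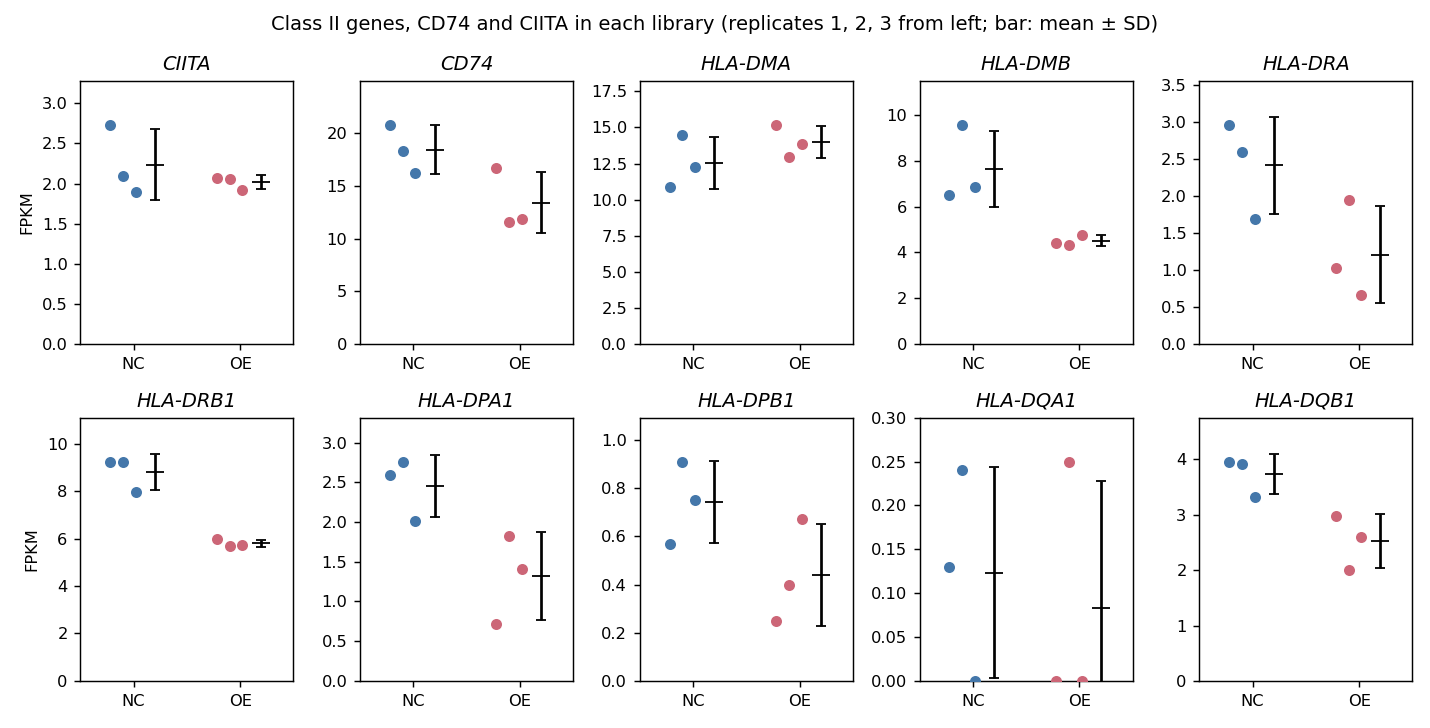
FPKM (y axis, from 0, with its own scale in each panel) of the 10 members in each library; points are replicates 1 to 3 from left to right, and the bars give mean ± SD of 3 libraries of NC (blue) and OE (red). HLA-DMB, HLA-DRB1, HLA-DPA1 and HLA-DQB1 show no overlap between groups, whereas HLA-DMA lies at 10.9 to 14.5 FPKM in NC and 12.96 to 15.2 FPKM in OE.

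The calls depended on which libraries were included. With any 1 of the 3 NC libraries or OE replicate 3 left out, 0 of 8 members were called, without OE replicate 1 it was 4 of 8 (CD74, HLA-DMB, HLA-DRB1 and HLA-DQB1), and without OE replicate 2 it was 2 of 8 (HLA-DRB1 and HLA-DRA). Over all 12322 genes the same fits moved alike: 2.43 to 3.65% of genes were called in the 4 fits with no member called, 28.5% without OE replicate 1 and 9.41% without OE replicate 2. At an unadjusted p under 0.05 in limma, 6 of 8 members were counted with all libraries, all lower in OE, against 28.2% of all tested genes in either direction and 16% lower. In the 4 fits with no call it was 2 to 6 members, against 19.8 to 21.9% of all tested genes. The sequencing depth, read from the steps of FPKM in short genes, was 28900000 to 36400000 fragments a library and did not separate the groups. The OE libraries differed among themselves in their dependence on GC content. Across 12305 genes, the departure of each library from the mean of the others of its group was set against transcript GC. The Spearman correlation was 0.79, −0.73 and −0.48 in OE replicates 1 to 3 and −0.06 to 0.10 in NC. Departures within a group sum to 0 for each gene, so these correlations are not independent and do not show which OE library stands apart. The members had a transcript GC of 47.2% (HLA-DRA) to 60.1% (CD74). CSPP1, the host gene of the circRNA, was at 9.11, 10.1 and 9.44 FPKM in NC and at 14.5, 22.8 and 21.4 FPKM in OE. The log2 difference was 0.94 (limma adjusted p = 0.016). Its reads cannot be split here into circular and linear RNA, and the libraries were of poly(A) RNA. The paper reports that neither linear CSPP1 mRNA nor its protein changed in its overexpressing lines. What the rise in CSPP1 consists of was not tested.

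The tissue label was checked against marker genes. The epithelial keratins and EPCAM were all expressed, and the prostate luminal gene KLK3 was at 0 in every library. Of 15 markers of B cells, myeloid cells, T cells and all leukocytes, 5 were at 0 in every library (MS4A1, CD3D, CD3E, CD2 and AIF1). Their summed level was 3.88 to 4.44 FPKM in NC and 2.24 to 3.94 FPKM in OE, and only CD14 passed the filter, at 2.34 to 2.42 FPKM in NC and 0.80 to 2.13 FPKM in OE. The pan-leukocyte gene PTPRC did not exceed 0.08 FPKM. All 6 epithelial markers passed the test. The adhesion molecules CDH1 and EPCAM fell, with log2 differences of −1.58 and −0.67, as did the luminal keratins KRT8 (−1.42), KRT18 (−0.85) and KRT19 (−0.56), and KRT7 rose (0.45), with limma adjusted p between 0.00056 and 0.046. Without the filter KRT7 was not called (limma adjusted p = 0.081), and it was called in 10 of 18 other settings of the fit. These markers moved with the groups, as did HLA-DMB and HLA-DRB1, and their part in the class II result was not tested.

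CIITA (ENSG00000179583, chromosome 16, 10866222 to 10943021, plus strand), the master co-activator, was at 2.73, 2.09 and 1.89 FPKM in NC replicates 1 to 3 and at 2.07, 2.06 and 1.92 FPKM in OE replicates 1 to 3. NC replicate 1 was the highest, and the other libraries of both groups lay together. The log2 difference was −0.09 (SE 0.13, 95% interval −0.39 to 0.20, limma adjusted p = 0.68). The sign of CIITA depended on processing, with 0.043 under quantile normalization and 0.013 without NC replicate 1. The CIITA locus overlaps DEXI over 13570 bases and an antisense gene over 22531 bases on the opposite strand. Strand-specific counting is not stated, so reads of overlapping genes cannot be told apart.

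CD74 (ENSG00000019582, chromosome 5, 150401637 to 150412929, minus strand), the invariant chain and also a receptor for the cytokine MIF, had the highest mean of the members in NC. It was at 20.8, 18.3 and 16.2 FPKM in NC and 16.7, 11.6 and 11.9 FPKM in OE. OE replicate 1 lay inside the NC range, and OE replicates 2 and 3 lay below it. The means were 18.4 ± 2.29 and 13.4 ± 2.87 FPKM (SD, n = 3 each), and the log2 difference of −0.44 (SE 0.16, 95% interval −0.82 to −0.06) did not pass the test (limma adjusted p = 0.12). Without OE replicate 1 the difference was −0.60, with an adjusted p of 0.012 by limma, in a fit that called 28.5% of all tested genes. With any other library left out, CD74 was not called. Its difference was then −0.53 to −0.36, with an adjusted p of 0.18 to 0.34 by limma.

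Of the HLA-DM chains, which form a heterodimer, HLA-DMB fell and HLA-DMA did not pass the test. HLA-DMB (ENSG00000242574, chromosome 6, 32934629 to 32941070, minus strand), the beta chain, was at 6.52, 9.56 and 6.86 FPKM in NC and 4.43, 4.32 and 4.77 FPKM in OE. The OE libraries were close together and below each NC library, of which NC replicate 2 was the highest. HLA-DMB fell by 0.63 on the log2 scale (SE 0.15, 95% interval −0.99 to −0.28), from 7.65 ± 1.67 to 4.51 ± 0.235 FPKM (SD, n = 3 each), with a limma adjusted p of 0.037. The call was lost without the filter on low values (limma adjusted p = 0.058), and it was made in 9 of 18 other settings of the fit. Behind these values stood an estimated 193 to 386 fragments a library.

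HLA-DMA (ENSG00000204257, chromosome 6, 32948613 to 32969094, minus strand), the alpha chain, was at 10.9, 14.5 and 12.3 FPKM in NC and 15.2, 12.96 and 13.9 FPKM in OE. The groups overlapped. The log2 difference was 0.16 (SE 0.13, 95% interval −0.15 to 0.46, limma adjusted p = 0.48). The ratio of HLA-DMB to HLA-DMA was 0.601, 0.661 and 0.559 in NC and 0.292, 0.333 and 0.344 in OE. The lowest NC ratio was above the highest OE ratio, with a log2 difference of −0.91 and an exact two-sided permutation p of 0.1, the smallest that 3 against 3 libraries can give. This ratio and the other pairs were chosen after the values were seen. The row AL645941.2, which overlaps both HLA-DM genes on the same strand, had at most 0.06 FPKM, and HLA-DMA also overlaps BRD2 by 435 bases on the opposite strand. BRD2 had a mean of 119.8 FPKM in NC and 161.0 FPKM in OE. Strand-specific counting is not stated, so reads of this overlap cannot be told apart, and their part in HLA-DMA was not tested.

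Among the DR chains, HLA-DRB1 (ENSG00000196126, chromosome 6, 32578769 to 32589848, minus strand), a polymorphic beta chain, had the higher FPKM. It was at 9.25, 9.25 and 7.95 FPKM in NC and 5.97, 5.71 and 5.72 FPKM in OE. All OE values were lower than all NC values, with an SD of 0.147 FPKM (n = 3) against 0.751 FPKM in NC. HLA-DRB1 fell by 0.53 on the log2 scale (SE 0.11, 95% interval −0.78 to −0.28), from a mean of 8.82 to 5.80 FPKM, with a limma adjusted p of 0.023. An estimated 204 to 356 fragments a library were behind it. HLA-DRB1 reads can be shared with near-identical DRB genes and pseudogenes, and its value is uncertain to that extent.

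HLA-DRB5, a paralogous beta chain carried only on some haplotypes, was at 1.36, 1.33 and 1.51 FPKM in NC and 0.79, 1.49 and 1.24 FPKM in OE. Its groups overlapped (log2 difference −0.16, limma adjusted p = 0.52). HLA-DRA (ENSG00000204287, chromosome 6, 32439842 to 32445046, plus strand), the nearly invariant alpha chain that pairs with every DR beta chain, was at 2.96, 2.59 and 1.69 FPKM in NC and 1.03, 1.94 and 0.66 FPKM in OE. OE replicate 2 lay above NC replicate 3. The mean in OE was 0.501 of that in NC, but the log2 difference of −0.65 (SE 0.24, 95% interval −1.2 to −0.10) did not pass (limma adjusted p = 0.12). HLA-DRA rested on an estimated 22 to 112 fragments a library. The ratio of HLA-DRB1 to HLA-DRA was 3.13, 3.57 and 4.70 in NC and 5.80, 2.94 and 8.67 in OE and overlapped between groups.

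The DP chains were low. HLA-DPA1 (ENSG00000231389, chromosome 6, 33064569 to 33080775, minus strand), the alpha chain, was at 2.59, 2.76 and 2.01 FPKM in NC and 0.72, 1.82 and 1.41 FPKM in OE. No OE library reached the lowest NC library, and OE replicate 1 was the lowest. The log2 difference was −0.60 (SE 0.19, 95% interval −1.05 to −0.14, limma adjusted p = 0.092). HLA-DPB1 (ENSG00000223865, chromosome 6, 33075926 to 33087201, plus strand), the beta chain, was at 0.57, 0.91 and 0.75 FPKM in NC and 0.25, 0.4 and 0.67 FPKM in OE, values that overlapped and stood for an estimated 13 to 43 fragments. HLA-DPB1 and HLA-DPA1 lie head to head and share 4850 bases on opposite strands.

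The DQ chains were unequal. HLA-DQB1 (ENSG00000179344, chromosome 6, 32659467 to 32668383, minus strand), the beta chain, was at 3.96, 3.92 and 3.32 FPKM in NC and 2.98, 2 and 2.6 FPKM in OE. The groups did not overlap, although OE replicate 1 was near NC replicate 3. The log2 difference was −0.43 (SE 0.14, 95% interval −0.75 to −0.11, limma adjusted p = 0.088). HLA-DQA1 (ENSG00000196735, chromosome 6, 32628179 to 32647062, plus strand), the alpha chain, was at 0.13, 0.24 and 0 FPKM in NC and 0, 0.25 and 0 FPKM in OE, at most 14 estimated fragments in a library. At this depth no difference in HLA-DQA1 was detectable. The summed level of the 6 DR, DP and DQ chains was 19.5, 19.7 and 15.7 FPKM in NC and 10.95, 12.1 and 11.1 FPKM in OE, so the groups did not overlap.

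**Figure D2:**
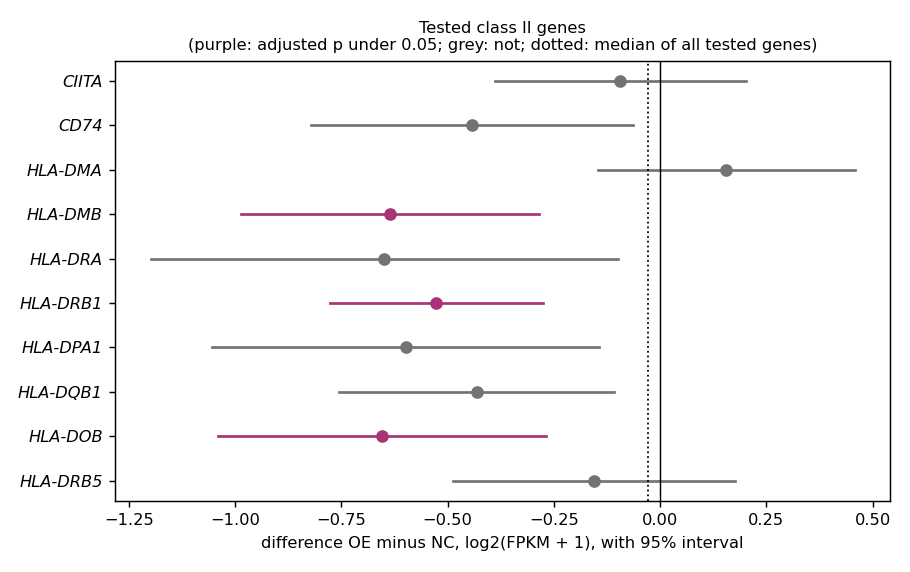
Difference OE minus NC on the log2(FPKM + 1) scale (x axis) with its 95% interval for the 8 tested members and for HLA-DOB and HLA-DRB5 (y axis); the dotted line is the median of all tested genes, and purple marks an adjusted p under 0.05. HLA-DMB (−0.63), HLA-DRB1 (−0.53) and HLA-DOB (−0.65) are purple, and HLA-DMA (0.16) is the only gene to the right of 0.

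By mean level per length over the 6 libraries, the order was CD74 at 15.9 FPKM, HLA-DMA at 13.3, HLA-DRB1 at 7.31, HLA-DMB at 6.08, HLA-DQB1 at 3.13, CIITA at 2.13, HLA-DPA1 at 1.89, HLA-DRA at 1.81, HLA-DPB1 at 0.592 and HLA-DQA1 at 0.103 FPKM. The order turned in places between groups. By OE means HLA-DMA (14.0 FPKM) stood above CD74 (13.4 FPKM), and by NC means CIITA (2.24 FPKM) stood below HLA-DPA1 (2.45 FPKM) and HLA-DRA (2.41 FPKM). Neighbours whose ranges overlapped in NC were HLA-DRB1 and HLA-DMB, CIITA and HLA-DPA1, and HLA-DPA1 and HLA-DRA. In OE, CD74 overlapped with HLA-DMA, HLA-DQB1 with CIITA, and HLA-DPA1 with HLA-DRA, as did HLA-DRA with HLA-DPB1 and HLA-DPB1 with HLA-DQA1. CD74 stood above 50.6% of the tested genes, HLA-DRB1 above 29.8% and HLA-DRA above 6.39%. The beta chains HLA-DRB1 and HLA-DQB1 each had a higher FPKM than their alpha chain in every library, whereas HLA-DPA1 had a higher FPKM than HLA-DPB1. How reads of the polymorphic HLA genes were assigned is not given, so these orders need not be those of the mRNA amounts.

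Ratios were also formed between members that are not chains of the same heterodimer. The ratio of HLA-DRB1 to HLA-DQB1 was 2.34, 2.36 and 2.39 in NC and 2.003, 2.86 and 2.2 in OE. The ratio of CD74 to HLA-DRB1 was 2.24, 1.98 and 2.04 in NC and 2.80, 2.03 and 2.08 in OE. Neither ratio separated the groups (exact permutation p of 1 and 0.6).

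As a description over the same 6 libraries, the Pearson correlation of log2(FPKM + 1) was 0.931 between CD74 and HLA-DQB1, 0.907 between HLA-DMB and HLA-DRB1 and 0.905 between HLA-DRB1 and HLA-DQB1. HLA-DMA was negatively correlated with each of the other 7 tested members, at −0.151 to −0.628. These points share the group difference and the libraries. The genes with the pattern most like HLA-DMB were HEXIM1, GPR37 and SPRED3 (r = 0.999, 0.995 and 0.994), and 88 genes exceeded 0.95. None of these named genes was called (limma adjusted p = 0.18, 0.13 and 0.059). Those most like HLA-DRB1 were QPRT, SEMA6C and NID2 (r = 0.998, 0.996 and 0.995), each called lower in OE (limma adjusted p = 0.0085, 0.017 and 0.0064), and 406 genes exceeded 0.95.

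From HLA-DRA to HLA-DPB1, 8 members and 12 other genes of the table lie on chromosome 6 between 32439842 and 33087201. Of the 12 other genes 8 were tested, with a median log2 difference of −0.19. HLA-DOB and BRD2 passed the test, in opposite directions, against 11.4% of all tested genes called in either direction. HLA-DOB, the beta chain of HLA-DO, which restrains HLA-DM, was at 1.36, 2.36 and 2.39 FPKM in NC and 0.76, 0.89 and 1.07 FPKM in OE. Its values did not overlap, it fell by 0.65 on the log2 scale (SE 0.17, limma adjusted p = 0.045), and it passed the filter through its NC level. Without the filter HLA-DOB was not called (limma adjusted p = 0.056), and it was called in 9 of 17 other settings of the fit. HLA-DOB overlaps the row AL669918.1 on the same strand, which ranged from 3.43 to 30.1 FPKM across the libraries. BRD2, a bromodomain protein that binds acetylated histones, rose from 119.8 ± 3.22 to 161.0 ± 8.30 FPKM (SD, n = 3 each), by 0.42 on the log2 scale (limma adjusted p = 0.015).

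HLA-DOA, the alpha chain of HLA-DO, was at 0.11, 0.24 and 0.25 FPKM in NC and 0, 0.06 and 0 FPKM in OE. HLA-DQA2 was at 0 except for 0.04 FPKM in OE replicate 2, and HLA-DQB2 was at 0 except for 0.16 FPKM in NC replicate 1. These values are at or near the limit of detection.

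**Figure D3:**
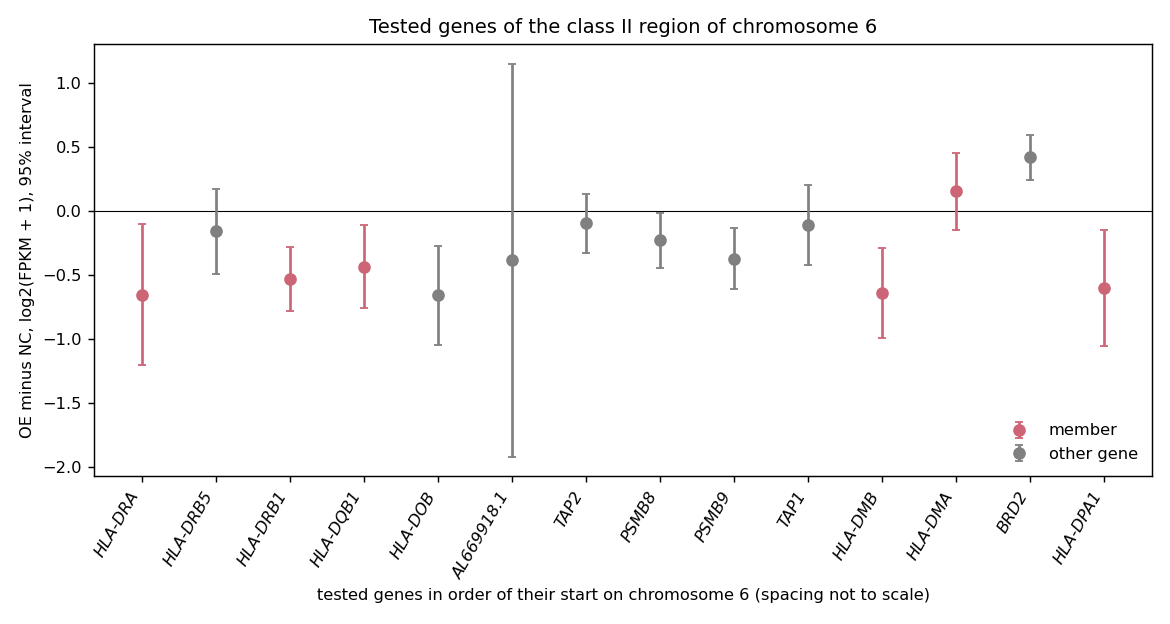
Difference OE minus NC on the log2(FPKM + 1) scale (y axis, 95% interval) for the 14 tested genes from HLA-DRA to HLA-DPA1, in order of their start on chromosome 6 (x axis, not to scale); red points are members and grey points other genes. HLA-DMB (−0.63) and its neighbour HLA-DMA (0.16) lie on different sides of 0, and BRD2 next to them is at 0.42.

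The factors that act at the X and Y boxes did not pass the test in either direction. None of the 7 (RFX5, RFXAP, RFXANK, NFYA, NFYB, NFYC and CREB1) was called, and their median log2 difference was −0.04. At an unadjusted p under 0.05 it was 1 of 7 in limma and 2 of 7 in an ordinary linear model. Over all tested genes these shares were 28.2% and 25.8%. For the calls in this and the following lists, 4.69% of all tested genes were called higher and 6.66% lower. RFX5, the DNA-binding subunit of the RFX complex, was at 181, 173 and 168 FPKM in NC and 160, 182 and 176 FPKM in OE (log2 difference −0.01, limma adjusted p = 0.94). RFXAP differed by −0.04 (limma adjusted p = 0.89) and RFXANK by −0.21 (limma adjusted p = 0.29), with groups that overlapped.

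In the interferon-gamma pathway that induces CIITA, 10 of 12 genes were tested, 1 rose and 1 fell, and the median difference was −0.09. IRF1, an activator of the interferon-responsive CIITA promoter, was at 23.8, 19.4 and 24.5 FPKM in NC and 36.3, 30.7 and 30.7 FPKM in OE. Every OE library was higher, and IRF1 rose by 0.51 on the log2 scale (SE 0.12, limma adjusted p = 0.039), a call that was lost without the filter (limma adjusted p = 0.051). IRF1 was called in 10 of 18 other settings of the fit. SOCS3, a feedback inhibitor of cytokine receptors, was at 35.1, 36.6 and 33.7 FPKM in NC and 20.3, 17.3 and 18.0 FPKM in OE. SOCS3 fell by 0.89 (SE 0.10, limma adjusted p = 0.0037), with no overlap. IFNG itself was at 0 in every library.

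Of 13 genes that interferon-gamma induces, 5 were tested, 1 fell and none rose, with a median difference of −0.24. GBP2, a guanylate-binding protein, was at 5.88, 6.37 and 6.12 FPKM in NC and 3.62, 3.61 and 3.80 FPKM in OE. It fell by 0.61 (SE 0.10, limma adjusted p = 0.012). CXCL9 was at 0 in every library, and CXCL10 and GBP5 did not exceed 0.4 and 0.02 FPKM.

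Among 14 genes of endosomal processing, which cut the invariant chain and prepare peptides, 13 were tested, 3 fell and none rose, with a median difference of −0.24. NAPSA, an aspartic protease, was at 9.02, 8.36 and 8.11 FPKM in NC and 5.07, 4.03 and 4.90 FPKM in OE and fell by 0.75 (limma adjusted p = 0.011). The cysteine proteases CTSV and CTSH fell by 0.45 and 0.39, each with a limma adjusted p of 0.041. Without the filter the adjusted p by limma was 0.062 for CTSV and 0.045 for CTSH, and under median-ratio scaling neither was called. CTSV was called in 7 of 17 and CTSH in 10 of 18 other settings of the fit. CTSS, the main protease for the invariant chain in antigen-presenting cells, was not tested, at 0.54 to 0.72 FPKM in NC and 0.62 to 0.84 FPKM in OE. Other proteases and reductases of this group did not pass, with differences of 0.20 for CTSL (limma adjusted p = 0.14), −0.16 for the asparaginyl endopeptidase LGMN (0.27) and −0.40 for the thiol reductase IFI30 (0.061).

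Of 6 ligands and partner receptors of CD74, 4 were tested. CXCR4, a chemokine receptor that can pair with CD74, was at 0.63, 0.64 and 0.69 FPKM in NC and 1.64, 1.40 and 1.62 FPKM in OE. It rose by 0.63 (limma adjusted p = 0.011) and passed the filter through its OE level. MIF, the ligand, was abundant at 548 to 731 FPKM and differed by −0.03 (limma adjusted p = 0.90), and CD44, the signalling partner of CD74, differed by 0.01 (limma adjusted p = 0.97).

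Co-stimulatory ligands and class II turnover were described in the same way. None of the 4 tested co-stimulatory genes passed, with a median difference of −0.40, and CD80 and CD86, the classical ligands of CD28, were at 0 in every library. In the turnover list, 2 of 3 genes were tested and none passed (median 0.01). At an unadjusted p under 0.05, limma gave 2 of the 4 co-stimulatory genes and 0 of the 2 turnover genes, and an ordinary linear model gave 1 in each list. Over all tested genes it was 28.2% by limma and 25.8% by the ordinary linear model.

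Class I genes were set beside class II. None of 14 genes of class I and its peptide loading passed the test, 12 were lower and 2 higher by sign, and the median difference was −0.12. Of all 12322 tested genes, 6648 were lower and 5674 higher by sign. At an unadjusted p under 0.05, 4 class I genes were counted by limma and 3 by an ordinary linear model, all lower. Over all tested genes it was 28.2% by limma (16% lower) and 25.8% by the ordinary linear model (14.2% lower). NLRC5, the class I counterpart of CIITA, differed by −0.21 (limma adjusted p = 0.31). B2M, the light chain of class I, varied widely within both groups, at 245, 624 and 599 FPKM in NC and 488, 235 and 597 FPKM in OE (limma adjusted p = 0.87). Over the 67 genes of the pathway lists outside the members, 47 were tested, with a median difference of −0.15. Of these, 2 rose and 6 fell, against 4.69% called higher and 6.66% called lower of all tested genes. Whether the class II members differ from these lists was not tested.

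**Figure D4:**
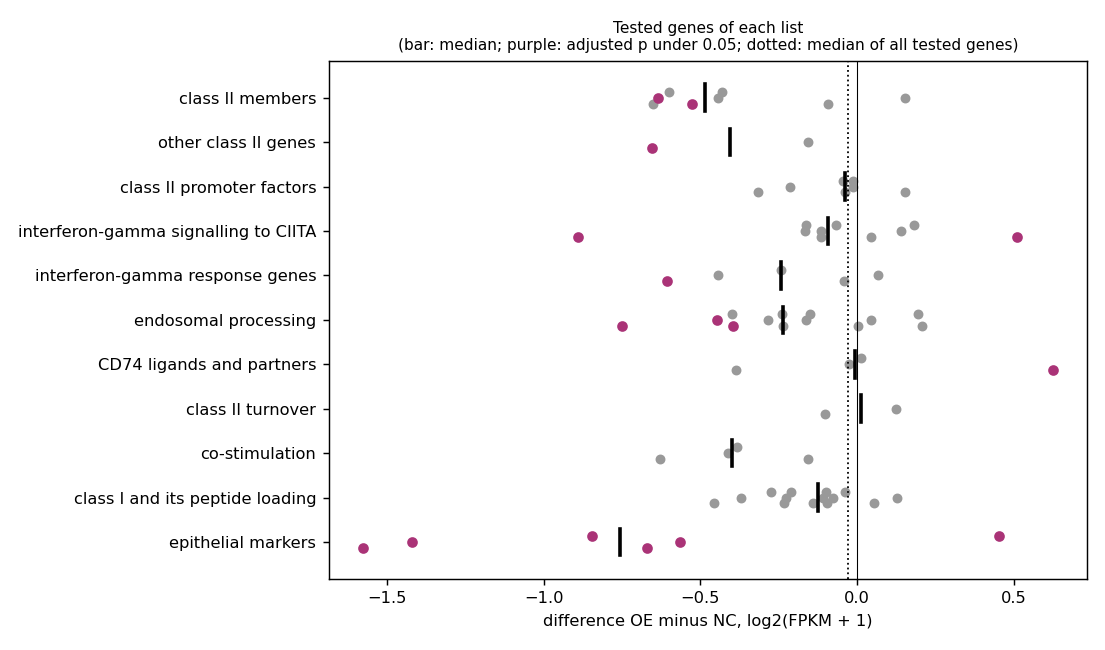
Difference OE minus NC on the log2(FPKM + 1) scale (x axis) of each tested gene in each list (y axis); the bar is the median of a list, purple points have an adjusted p under 0.05, and the dotted line is the median of all tested genes (−0.03). The class II members have a median of −0.48, the class II promoter factors of −0.04 and the class I genes of −0.12.

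The study concerns miR-520h, a microRNA that circCSPP1 is proposed to bind, and its sites in the members are given for that reason. The mature sequence from RefSeq is shown 5′ to 3′ with its seed (bases 2 to 8) in capitals.
hsa-miR-520h: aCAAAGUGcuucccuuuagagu
Matches to the seed were searched as CACTTTG or ACTTTGA in the 3′ UTR of each gene (GENCODE 29). The longest 3′ UTR among the complete coding transcripts of a gene was used. Such a match was found in 2 of the 10 members, CIITA with 3 matches in 12533 bases and HLA-DPA1 with 1 match in 791 bases, and in 29% of 19067 genes. The coding transcripts of CIITA run from 2344 to 16059 bases, so the shortest cannot hold this 3′ UTR. Which of them DU145 expresses was not tested. HLA-DMB held only the 6-base match ACTTTG, which occurred in 43.2% of all genes. HLA-DRB1, CD74 and the remaining 5 members held none of these letters.

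**Figure D5:**
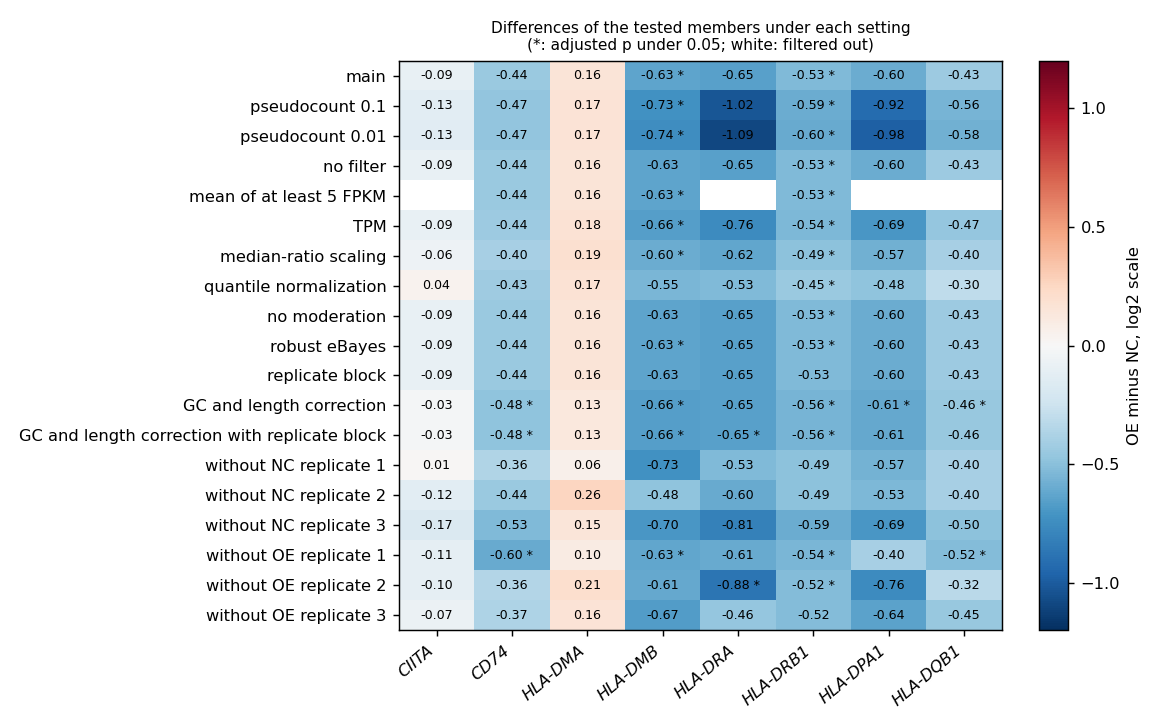
Difference OE minus NC on the log2 scale (colour and printed value) of the 8 tested members (columns) in the fit reported and in 18 other settings (rows); asterisks mark an adjusted p under 0.05 and white cells are members removed by a stricter filter. HLA-DRB1 is called in 13 and HLA-DMB in 9 of 18 other settings, and CIITA is the only member with values on both sides of 0.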

How the data were processed

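Poly(A) RNA of DU145 was sequenced as paired ends on an Illumina NovaSeq instrument. The authors deposited 1 table of FPKM per gene for 6 libraries, on hg38 per the labels; the aligner, the quantifier and the treatment of reads shared among HLA genes are not given in the sources used here. Groups were taken from the sample titles.

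FPKM is not a count, so log2(FPKM + 1) was fitted with limma 3.58.1 (R 4.3.3, eBayes with trend, no covariates, two-sided), for the 12322 genes whose average across all 6 libraries reached 1 FPKM, and called at an adjusted p under 0.05. Fold changes are on that scale, which understates changes of low genes. The pipeline was tested on simulated data with independent noise of the size seen between NC libraries. The GC dependence of the OE libraries was not simulated. Single values were compared by exact permutation tests (scipy 1.17.1). Intervals are 95%.

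Depth was inferred from FPKM steps in genes with 1 transcript under 800 bases, where 93.1 to 98.4% of 56 to 67 values per library were whole fragments within 0.15. Fragments per member are estimates from the shortest and longest coding transcripts in GENCODE 29, cover counting error only, and precision is limited where they are few. Coordinates of genes are from the same annotation (GRCh38). In the table, 27 symbols turned into dates were matched by identifier.

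The members and lists were chosen with earlier results of these data known. Named were all members, genes called in the context lists (at most 4 a list, by size of change), preset pathway genes with their values (some are not reported here), and the 3 genes most correlated with each called member. BRD2, AL645941.2 and AL669918.1 were named after their values were seen. Alternatives covered pseudocounts, filters, scaling, variance, pairing, GC and length correction, and left-out libraries.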

Additional observations from a re-analysis of the deposited data

How the results depend on the processing

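Of 140 fits of tested members under 18 alternatives, 116 kept direction and side of the threshold, 14 lost the call, 8 gained one and 2 turned direction, both for CIITA (0.043 under quantile normalization, and 0.013 without NC replicate 1, in a range of −0.17 to 0.013 when 1 library was left out). The other 7 tested members kept their direction in every alternative run. HLA-DRB1 ranged from −0.60 to −0.45 on the log2 scale (adjusted p 0.0052 to 0.117) and HLA-DMB from −0.74 to −0.48 (adjusted p 0.014 to 0.114). The number of members called, 2 as reported, was 1 without a filter, with quantile normalization and without moderation, 5 after correction for GC content and length, and 0 to 4 when 1 library was left out. Pathway genes called, 8 as reported, numbered 5 without a filter, 4 with a mean of at least 5 FPKM, 5 without moderation, 15 after the GC and length correction, and 1 to 16 with 1 library left out. Over all tested genes, 1399 were called as reported, 834 without moderation, 3469 after the GC and length correction, and 300 to 3512 with 1 library left out. Fewer libraries leave fewer degrees of freedom. The cause of the other changes was not tested.

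The labels do not say what libraries of the same replicate number share. Deviations of same-numbered libraries correlated at 0.073, 0.0065 and 0.057, each below 0.1. OE replicates 1 and 3 correlated best with the NC library of their own number, and OE replicate 2 with NC replicate 3 (0.036). Such weak correlations cannot decide whether the samples were paired. With the replicate block, 0 members (limma adjusted p 0.059 for HLA-DRB1 and 0.061 for HLA-DMB), 5 pathway genes and 923 of all tested genes were called. In that fit 6 members stood at an unadjusted p under 0.05 in limma, against 26.1% of all tested genes. With the replicate block and the GC and length correction together, 4 members, 13 pathway genes and 2658 of all tested genes were called. Low fragment numbers limit HLA-DRA, HLA-DPA1, HLA-DPB1 and HLA-DQA1, and shared HLA reads limit the chains with paralogues.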
